A study of Homo sapiens with 6 samples.

Results

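The transport of salt and water across airway epithelium was followed here through 8 genes, CFTR, ANO1, CLIC3, SLC12A2, ATP1B1, SCNN1A, AQP3 and AQP5, which were taken by name from the 24846 genes of the deposited table. They were measured by RNA-seq in A549, a human lung adenocarcinoma cell line. The ACC group comprised 3 cultures kept for 8 passages in DMEM/F12 without calcium, to which amorphous calcium carbonate (ACC) was added at 2 mM elemental calcium. The control group comprised 3 cultures kept for 8 passages in regular DMEM/F12, which holds less calcium, as calcium chloride, according to the methods of the study. The ACC suspension also brought carbonate and, according to the same methods, sodium tripolyphosphate as a stabilizer. The carrier and the dose of calcium, the carbonate and the stabilizer therefore changed together and cannot be told apart. Both media held 10% serum and antibiotics, and all cells are described as wild type. It is not clear if cultures of 1 group were kept apart through the passages. The p-values therefore cover only how far these 6 libraries of a single cell line scatter, which may be partly technical.

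An airway epithelium moves water by moving salt. In chloride secretion, the sodium pump on the basolateral side keeps sodium low inside the cell, a cotransporter uses that gradient to load the cell with chloride, and chloride leaves through channels in the apical membrane, with sodium and water following. In absorption, sodium enters through the apical epithelial sodium channel (ENaC) and is pumped out at the basolateral side, and water follows through aquaporins and between the cells. CFTR is the cAMP-dependent chloride channel that is defective in cystic fibrosis, and this balance sets the depth of the liquid on which mucus lies.

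The values are normalized counts, that is, reads per gene divided by a size factor of each library, and 1 normalized count is close to 1 read. Libraries held 21771645 to 24805486 reads in genes. Mitochondrial transcripts took 4.39 to 5.70% of the reads with ACC and 4.04 to 4.29% in the controls. The epithelial keratin and adhesion markers of the labelled cell type were all present, whereas FOXI1, which defines the CFTR-rich ionocytes of the airway, had 0 reads. So had NKX2-1 from the list of alveolar type II cells, HOPX of alveolar type I cells, KRT14 of basal cells and CD3E of T cells. Other genes on the lists of those cell types were present, among them ABCA3 of alveolar type II cells at 1773 to 1919 normalized counts, CAV1 of alveolar type I cells at 6309 to 11974, TP63 of basal cells at 375.6 to 750.4 and ITGAM of leukocytes at 34.2 to 81.1. The epithelial keratin and adhesion markers summed to 165587 to 172025.5 normalized counts with ACC and 216434.5 to 221583 in the controls (3 of 6 higher, 3 lower). Genes known to be high in A549 summed to 467620 to 494602.5 with ACC and 380430 to 398779 in the controls (5 of 6 higher, 1 lower). Markers of airway secretory and goblet cells also moved with the treatment. All 6 that could be tested passed as higher with ACC, and the summed level of the 7 markers in the table ranged from 68551 to 80043 normalized counts with ACC and from 4585 to 6584 in the controls. Ciliated cell markers summed to 555.7 to 689.5 with ACC and 271.8 to 303.2 in the controls (2 of 7 higher, 1 lower), and alveolar type I markers to 9379 to 9824 and 14216 to 16230 (0 of 4 higher, 3 lower). Basal markers summed to 553.8 to 628.1 with ACC and 812.9 to 948.6 in the controls (0 of 4 higher, 1 lower), leukocyte markers to 83.8 to 88.5 and 39.9 to 49.8 (2 of 3 higher, 0 lower), and fibroblast markers to 1955 to 2216 and 2142 to 2345 (0 of 5 higher, 4 lower). Of all genes tested, 21.3% passed as higher and 21.9% as lower. The part of these marker genes and of the mitochondrial share in the results was not tested. In RNA from whole cultures, more cells of a type and more RNA per cell cannot be told apart.

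Of the 8 genes, which were chosen with earlier results of these data known, 7 had enough reads to be tested and AQP5 had not. With ACC, 5 of the 7 passed the limma test as higher, that is, with a Benjamini-Hochberg adjusted p over 19318 genes that did not exceed 0.05, CFTR only in some settings, against 21.3% of all genes tested, and 1 was lower, against 21.9%. AQP3 and SLC12A2 were also called higher at the thresholds of the study, which further ask for a 2-fold change and for 30 reads in 1 library or more. Of all genes tested, 2.77% were called higher, 2.24% lower and 5.01% either way, and CLIC3 was among those called lower, although it fell just short of a 2-fold change without control replicate 2 or with a pseudocount of 5 (log2 fold change -0.99 in both). The groups did not overlap in 6 of the 7, with ACC above the controls in 5 and below them in 1, while they did not overlap in 51.4% of all genes (25.5% above and 25.9% below). Fold changes are on the log2(normalized count + 1) scale, where the added 1 makes the changes of genes on few reads smaller. CFTR nevertheless had 0.87 on this scale and 0.85 with edgeR and with DESeq2.

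**Figure D1:**
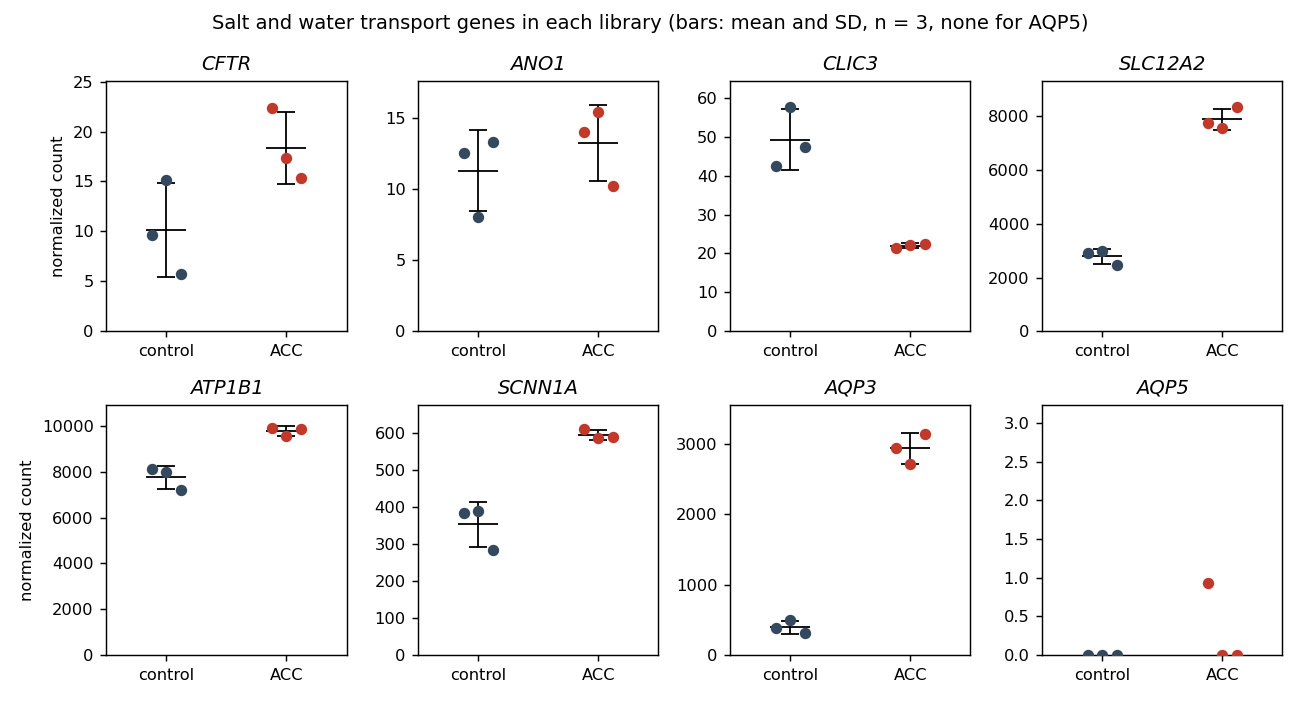
Normalized counts (linear axes from 0, a separate scale in each panel) of the 8 genes in the 3 control and 3 ACC libraries, points from left to right being replicates 1, 2 and 3. Horizontal bars and whiskers are the mean and SD, not drawn for AQP5. AQP3 and SLC12A2 stand far above the controls in every ACC library, CLIC3 stands below them, and ANO1 overlaps.

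The stretches in front of the genes that passed are shown because 4 of those printed rose and 1 fell. RefSeq gives a promoter for 7 of the 8 genes on GRCh38.p14, and SCNN1A is the other. Each run below is the 250 bases before the transcription start, 5′ to 3′ on the strand of the gene. Capitals mark matches, on either strand, to TATAAA (the TATA box), to CCAAT, to GGGCGG (the GC box), to TGACNTCA (forms of the cAMP response element, N being any base) or to TGAGTCA (the AP-1 site). Neighbouring GC boxes may share bases. For CFTR, ATP1B1 and, by 3 bases, AQP3, the RefSeq start lies inside the GENCODE span of the gene given with its values.
AQP3, chr9:33447594-33447843, minus strand: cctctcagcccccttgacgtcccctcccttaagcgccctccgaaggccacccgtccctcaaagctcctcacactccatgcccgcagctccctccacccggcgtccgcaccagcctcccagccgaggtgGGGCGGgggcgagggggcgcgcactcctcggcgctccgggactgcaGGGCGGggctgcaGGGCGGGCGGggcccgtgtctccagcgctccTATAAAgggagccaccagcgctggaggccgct
SLC12A2, chr5:128083516-128083765, plus strand: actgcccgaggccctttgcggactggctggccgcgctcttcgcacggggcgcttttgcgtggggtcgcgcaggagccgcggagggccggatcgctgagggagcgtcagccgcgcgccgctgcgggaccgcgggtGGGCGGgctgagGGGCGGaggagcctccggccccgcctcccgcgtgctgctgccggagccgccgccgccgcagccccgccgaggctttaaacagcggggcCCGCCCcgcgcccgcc
ATP1B1, chr1:169106440-169106689, plus strand: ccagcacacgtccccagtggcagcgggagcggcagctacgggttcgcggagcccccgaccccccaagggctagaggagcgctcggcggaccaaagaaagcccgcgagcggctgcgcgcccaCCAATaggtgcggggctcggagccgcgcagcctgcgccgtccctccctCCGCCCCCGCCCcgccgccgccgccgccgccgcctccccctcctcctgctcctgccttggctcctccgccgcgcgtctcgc
CFTR, chr7:117479775-117480024, plus strand: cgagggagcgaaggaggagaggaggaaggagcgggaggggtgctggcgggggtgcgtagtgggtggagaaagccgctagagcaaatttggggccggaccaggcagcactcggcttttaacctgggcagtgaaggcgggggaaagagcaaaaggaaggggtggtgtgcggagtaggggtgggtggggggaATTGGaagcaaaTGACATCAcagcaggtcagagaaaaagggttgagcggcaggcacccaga
CLIC3, chr9:136996569-136996818, minus strand: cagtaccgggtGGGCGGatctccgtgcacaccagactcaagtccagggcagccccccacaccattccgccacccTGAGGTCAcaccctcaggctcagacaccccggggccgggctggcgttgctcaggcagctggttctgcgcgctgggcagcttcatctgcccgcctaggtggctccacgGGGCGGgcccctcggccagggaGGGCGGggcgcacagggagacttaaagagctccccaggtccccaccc
AQP3 was the only one of the 5 with a TATA box, which begins 32 bases before its start, and 10.7% of the 35116 RefSeq promoters hold one in the same window. The GC-rich fronts of AQP3, SLC12A2, ATP1B1 and CLIC3 held 4, 3, 2 and 3 GC boxes, a motif found in 42.6% of promoters, and that of CFTR held 0. CFTR had TGACATCA beginning 49 bases before its start, and CLIC3, which fell, had TGAGGTCA beginning 176 bases before its start, both forms of the cAMP element that 6.87% of promoters hold. CCAAT boxes, found in 32.0% of promoters, occurred in front of ATP1B1 and CFTR, and AP-1 sites, found in 4.2%, in front of none of the 5. No motif occurred in front of all 4 genes that rose and not of CLIC3. A match is a description of the letters and not a site.

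Chloride uptake was represented by SLC12A2, which encodes NKCC1, the basolateral cotransporter that brings sodium, potassium and chloride into the cell together. Its normalized counts were 7771, 7575 and 8332 with ACC and 2899.9, 2998 and 2452 in the controls. Every ACC library thus held well over the highest control value. The rise was 2.84-fold (log2 fold change 1.51, standard error 0.0579, 95% interval 1.39 to 1.63, limma adjusted p = 3.44e-13). SLC12A2 (ENSG00000064651) lies on chromosome 5 of GRCh38 from 128083766 to 128189677.

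The sodium gradient that drives this uptake is kept by the Na+/K+-ATPase, whose beta1 subunit, needed to bring the pump to the membrane, is encoded by ATP1B1 (ENSG00000143153, chromosome 1 of GRCh38, 169105697 to 169310992). ATP1B1 had 9915, 9543 and 9869 normalized counts with ACC and 8105, 7994 and 7189.7 in the controls. The rise was small and even, 1.26-fold (log2 fold change 0.33, standard error 0.0417, 95% interval 0.25 to 0.42, limma adjusted p = 2.86e-06), and the groups did not overlap. NME7, which shares 287 bases of exon with ATP1B1 on the other strand, had at most 393.8 normalized counts, far below ATP1B1.

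Chloride exit through the apical membrane was represented by CFTR (ENSG00000001626, chromosome 7 of GRCh38, 117287120 to 117715971) and ANO1 (ENSG00000131620, chromosome 11 of GRCh38, 69985907 to 70189530), the calcium-activated chloride channel. Both were near the limit of detection. CFTR had 22.4, 17.3 and 15.3 normalized counts with ACC and 9.64, 15.1 and 5.70 in the controls, from 57 reads with ACC and 33 in the controls. The lowest ACC library barely exceeded the highest control. The log2 fold change was 0.87 (standard error 0.339, 95% interval 0.16 to 1.58, limma adjusted p = 0.0465). CFTR did not pass with edgeR (adjusted p = 0.0561) or DESeq2 (adjusted p = 0.175), nor with limma once ACC replicate 1, 2 or 3 or control replicate 1 or 3 was left out (adjusted p from 0.0612 to 0.207 with limma), its log2 fold change being 0.73 without ACC replicate 1 and 0.55 without control replicate 3. Whether CFTR passed thus depended on the tool and on single libraries. ANO1 had 14.0, 15.4 and 10.2 normalized counts with ACC and 12.5, 8.00 and 13.3 in the controls, and the groups overlapped. Its log2 fold change was 0.22, with a 95% interval from -0.45 to 0.89 (limma adjusted p = 0.62), so that at 9 to 16 reads a library the interval ran from a 0.733-fold to a 1.86-fold level.

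CLIC3 (ENSG00000169583, chromosome 9 of GRCh38, 136994608 to 136996568), a member of the chloride intracellular channel family, whose proteins occur in soluble and membrane forms, was the only one of the 7 tested genes to fall. It had 21.4, 22.2 and 22.5 normalized counts with ACC and 42.4, 57.8 and 47.5 in the controls. The 3 ACC libraries lay close together and below every control. The level fell by 1.11 on the log2 scale (standard error 0.200, 95% interval -1.54 to -0.69, limma adjusted p = 1.71e-04), on 22 to 65 reads a library.

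Sodium absorption was represented by SCNN1A (ENSG00000111319, chromosome 12 of GRCh38, 6346843 to 6377730), which encodes the alpha subunit of ENaC. It had 609.3, 585.6 and 587.2 normalized counts with ACC and 384.5, 389.4 and 283.0 in the controls. ACC libraries agreed closely while control replicate 3 lay below the other controls. The rise was 1.70-fold (log2 fold change 0.77, standard error 0.0931, 95% interval 0.57 to 0.96, limma adjusted p = 2.06e-06), and the log2 fold change was 0.62 without control replicate 3. SCNN1A shares 422 bases of exon with LTBR, a cytokine receptor gene on the other strand that was looked up for this overlap. LTBR had 10271 to 10520 normalized counts with ACC and 5033 to 5597 in the controls (log2 fold change 0.92, limma adjusted p = 8.01e-12). The counting is not stated to use strand, so reads of LTBR and SCNN1A in the shared stretch cannot be told apart, and their part in the rise of SCNN1A was not tested.

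Water channels were represented by AQP3 (ENSG00000165272, chromosome 9 of GRCh38, 33441156 to 33447596), a basolateral channel for water and glycerol, and AQP5 (ENSG00000161798, chromosome 12 of GRCh38, 49961872 to 49965682), the apical water channel of alveolar type I cells and submucosal glands. AQP3 had 2944, 2719 and 3149.7 normalized counts with ACC and 385.5, 493.4 and 308.6 in the controls. This was the largest change among the 7 tested genes, 7.53-fold (log2 fold change 2.91, standard error 0.108, 95% interval 2.69 to 3.14, limma adjusted p = 2.16e-13), a log2 fold change above that of 99.7% of all genes tested. AQP5 had 1 read in ACC replicate 1 and 0 reads in the other 5 libraries. A count of 0 over the 3 controls allows up to 3 reads, so both groups were at the floor and no fold change is given. AQP5 was not detectable above this floor in A549 at this depth.

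**Figure D2:**
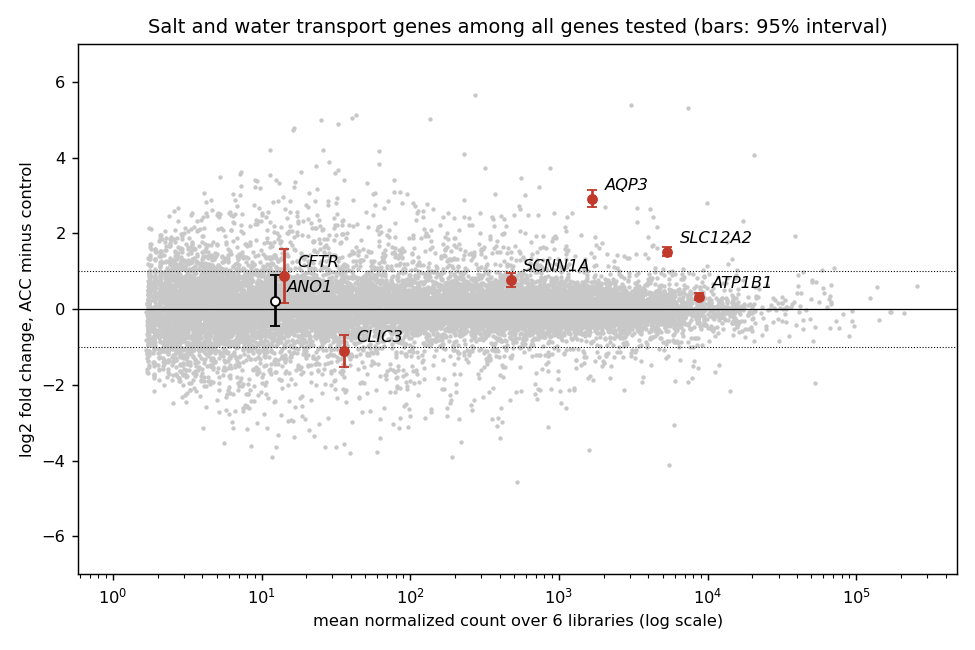
Log2 fold change (ACC minus control) against the mean normalized count over the 6 libraries (log axis) for all 19318 genes tested in grey and 7 salt and water transport genes in colour, with 95% intervals. Filled points passed the limma test and the open point, ANO1, did not. Dotted lines mark a 2-fold change, and the wide intervals of CFTR and ANO1 contrast with those of ATP1B1 and SLC12A2.

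In 5 of the 7 tested genes, CFTR, SLC12A2, SCNN1A, ATP1B1 and AQP3, the lowest control value came from control replicate 3. Without that library the log2 fold changes were smaller, 1.42 for SLC12A2, 0.28 for ATP1B1 and 2.75 for AQP3, and these genes and SCNN1A still passed limma. Leaving out any 1 library moved the log2 fold change of AQP3 between 2.75 and 3.08, that of SLC12A2 between 1.42 and 1.56 and that of CLIC3 between -1.21 and -0.99.

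Levels can be compared between genes only per length. In normalized counts per kilobase of annotated exon, the control order was ATP1B1 (631.6 ± 40.6), SLC12A2 (261 ± 27.3), AQP3 (136 ± 31.9), SCNN1A (59.96 ± 10.2), CLIC3 (50.8 ± 8.09), ANO1 (1.80 ± 0.456) and CFTR (0.603 ± 0.281) (SD, n = 3 each), with AQP5 at 0. Only SCNN1A and CLIC3 had overlapping control ranges among neighbours in this order. With ACC, AQP3 had 1009 ± 74.0 per kilobase, above ATP1B1 at 795 ± 16.5 and SLC12A2 at 741 ± 36.9 (SD, n = 3 each), the ranges of the last pair overlapping. SCNN1A followed at 101 ± 2.26, CLIC3 at 22.7 ± 0.563, ANO1 at 2.11 ± 0.427 and CFTR at 1.09 ± 0.215 (SD, n = 3 each). Per kilobase of the longest annotated transcript instead, the ACC order became ATP1B1 (1526), SLC12A2 (1148) and AQP3 (1009), and CFTR (2.95) moved ahead of ANO1 (2.71), so these orders depend on the length used. The control order was the same with either length.

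**Figure D3:**
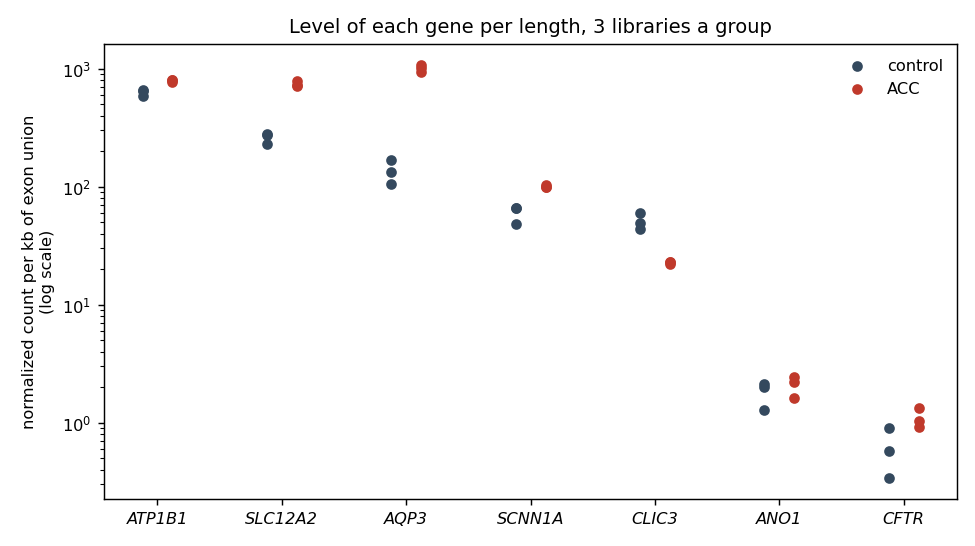
Normalized counts per kilobase of annotated exon (log axis) of 7 genes in each control and ACC library, ordered by the control mean, with AQP5, at or near 0, left out. AQP3 moves ahead of ATP1B1 and SLC12A2 with ACC, and CLIC3 and SCNN1A, side by side in the controls, lie apart with ACC.

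Ratios of genes within a library do not depend on its size factor. The ratio of SLC12A2 to ATP1B1, on normalized counts, was 0.784, 0.794 and 0.844 with ACC and 0.358, 0.375 and 0.341 in the controls, so that it was higher with ACC by a factor of 2.26 (log2 difference 1.17). SLC12A2 relative to SLC12A7, which encodes KCC4, a cotransporter that lets potassium and chloride out, was 2.52 times higher with ACC (log2 ratio 2.04 ± 0.0592 against 0.70 ± 0.0997, SD, n = 3 each). ATP1B1 relative to ATP1B3, the beta3 subunit of the same pump, was higher by a factor of 1.41. CLIC3 relative to CLIC1 was lower by 1.22 on the log2 scale. The groups did not overlap in these 4 ratios. The ratios of CFTR to ANO1 and of CFTR to SCNN1A overlapped between the groups, with differences of 0.65 and 0.10 on the log2 scale. The ratio of AQP3 to AQP5 did not overlap either but reflects AQP3 alone, since AQP5 was at the floor. Exact two-sided permutation tests gave p = 0.1, the smallest that 3 against 3 libraries allow, for these 4 and for AQP3 to AQP5 (adjusted p = 0.133 over the 8 ratios computed), and p = 0.4 and 0.7 for the CFTR ratios, so none could pass.

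The partners of these genes were followed in 9 lists of 134 genes in all. They were written from general knowledge with earlier results of these data known, so the shares below describe the lists and do not test them. Of these, 107 were tested. With ACC, 36 (33.6%, against 21.3% of all genes tested) passed as higher and 24 (22.4%, against 21.9%) as lower, and their median log2 fold change was 0.10, against 0.00 for all genes tested. At a fold change of 2 and 30 reads, 11 (10.3%, against 2.77% of all genes) were called higher and 2 (1.87%, against 2.24%) lower.

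Of 10 further sodium pump and FXYD genes tested, 3 were higher and 1 lower (median log2 fold change 0.40). The 3 that rose were FXYD proteins, small regulators that sit beside the pump. FXYD2, the gamma subunit of the kidney pump, had 257.2 to 269 normalized counts with ACC and 53.97 to 56.03 in the controls, a 4.70-fold rise (log2 fold change 2.23, standard error 0.104, limma adjusted p = 5.03e-12). FXYD6 rose 3.62-fold from 9.50 to 10.6 normalized counts to 35.8 to 43.3, and FXYD5, which is found in many carcinomas, rose by 0.29 on the log2 scale. ATP1B3 fell by 0.17 on the log2 scale (limma adjusted p = 0.00373). The changes of ATP1B1 and ATP1B3 were thus smaller than those of FXYD2 and FXYD6.

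ENaC is built of alpha, beta and gamma subunits. Besides SCNN1A, SCNN1B, the beta subunit, rose 2.59-fold, from 31.8 to 41.8 normalized counts in the controls to 92.5 to 101 with ACC (log2 fold change 1.37, standard error 0.155, limma adjusted p = 8.45e-07). SCNN1G, the gamma subunit, stayed low, with 5.59 to 10.6 normalized counts with ACC and 9.64 to 15.1 in the controls, and did not pass (log2 fold change -0.62, 95% interval -1.37 to 0.14). SCNN1D, the delta subunit, did not pass either (0.22, 95% interval -0.13 to 0.57). Per kilobase of exon, the alpha, beta and gamma subunits had 101, 24.9 and 2.14 normalized counts with ACC and 59.96, 9.50 and 3.38 in the controls.

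Of 15 tested genes that act on ENaC, 5 were higher and 3 lower (median log2 fold change 0.19). SPINT2, an inhibitor of membrane serine proteases of the kind that cleave and activate ENaC, had 14567 to 15368 normalized counts with ACC and 7987 to 8709 in the controls (log2 fold change 0.84, limma adjusted p = 2.64e-12). SPINT1, a related inhibitor, and TSC22D3, the glucocorticoid-induced leucine zipper, which raises ENaC at the cell surface, had log2 fold changes of 1.54 and 1.17. They were the 2 called higher (13.3% of those tested, against 2.77% of all genes). NEDD4L, the ubiquitin ligase that removes ENaC from the membrane, rose by 0.56 on the log2 scale (limma adjusted p = 5.22e-09). SGK1, the kinase that restrains NEDD4L, fell by 0.41 and NEDD4, a related ligase, fell by 0.40 on the log2 scale. PRSS8, a protease that activates ENaC, was at 0.00 to 1.93 normalized counts with ACC and 3.80 to 7.11 in the controls (log2 fold change -1.69, limma adjusted p = 0.0232), close to the limit of detection. NR3C1, the glucocorticoid receptor, had a log2 fold change of -0.07 (limma adjusted p = 0.113). Genes known to raise and to lower ENaC were found on both sides.

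Among other aquaporins, 4 were tested, 2 were higher (50.0%, against 21.3% of all genes) and 0 lower (against 21.9%). AQP7, a channel for glycerol and water, had 68.9 to 99.2 normalized counts with ACC and 12.4 to 27.95 in the controls, a 4.46-fold rise (log2 fold change 2.16, standard error 0.246, limma adjusted p = 9.51e-07). AQP7 lies on the same strand of chromosome 9 as AQP3, 38.5 kb from it (GRCh38, 33383179 to 33402682). Of the other genes within 100 kb of AQP3 that had a mean above 100 normalized counts, looked up after AQP7 was seen, NOL6, 13.8 kb away, had a log2 fold change of 0.06 (95% interval -0.04 to 0.16), ANKRD18B 0.07 (95% interval -0.10 to 0.25), and NFX1, 70.0 kb away on the far side of AQP7, rose by 0.32 (limma adjusted p = 2.53e-05). AQP7 has near-identical pseudogenes with which it may share reads. AQP6, on at most 9.21 normalized counts, passed with a log2 fold change of 1.41, but not with DESeq2 or without ACC replicate 2 (1.44) or 3 (1.24) or control replicate 3 (1.09). AQP11 had a log2 fold change of -0.29 (95% interval -0.60 to 0.01).

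Of 24 other chloride channel genes tested, 9 were higher (37.5%, against 21.3% of all genes) and 4 lower (16.7%, against 21.9%). Their median log2 fold change was 0.20, and 3 were called, against 5.01% of all genes. SLC26A9, an epithelial chloride channel and transporter that interacts with CFTR, rose to between 53.0 and 68.0 normalized counts from between 19.3 and 28.4 (log2 fold change 1.26, limma adjusted p = 4.74e-05). ANO9, a relative of ANO1, had a log2 fold change of 1.15, under 2-fold without ACC replicate 2 (0.99) or control replicate 3 (0.97). LRRC8C, a subunit of the volume-regulated anion channel, fell by 1.21 on the log2 scale, from 1168 to 1253 normalized counts to 483.5 to 540.4 (standard error 0.0562, limma adjusted p = 4.93e-12). LRRC8D, another subunit, rose by 0.42, whereas LRRC8A, the subunit that every such channel needs, had a log2 fold change of 0.07 (95% interval -0.02 to 0.16, limma adjusted p = 0.199). Of 4 other CLIC genes, CLIC4 and CLIC1 passed as higher (50.0%, against 21.3% of all genes), with log2 fold changes of 0.24 and 0.11. CLIC1 did not pass without ACC replicate 1 or 3 or control replicate 2 (0.08 to 0.10). No other tested CLIC gene that passed moved in the direction of CLIC3. CLIC2, at most 8.67 normalized counts, had a log2 fold change of -1.10 (limma adjusted p = 0.0752).

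Of 6 other SLC12 genes, 2 were higher (33.3%, against 21.3% of all genes) and 1 lower (16.7%, against 21.9%). SLC12A7 rose by 0.17 on the log2 scale (limma adjusted p = 0.00301). SLC12A4 did not pass (-0.09, 95% interval -0.21 to 0.02). SLC12A8, with at most 18.0 normalized counts, fell by 1.61, but not at the threshold without ACC replicate 1 (-1.13) or control replicate 3 (-1.24). SLC12A7 and SLC12A4 thus changed far less than SLC12A2. The WNK kinases and their partners STK39 (SPAK) and OXSR1 switch SLC12A2 on by phosphorylation. Of 9 genes tested in a list of these kinases, their cofactors and the ligase parts KLHL3 and CUL3, which degrade WNK kinases, 0 were higher and 5, CUL3 among them, were lower (median log2 fold change -0.14), against 21.3% and 21.9% of all genes. WNK1 had 7827 to 7895 normalized counts with ACC and 9368 to 9544 in the controls (log2 fold change -0.27, limma adjusted p = 1.45e-06), WNK2 fell by 0.41, STK39 by 0.19 and OXSR1 by 0.14 on the log2 scale. CUL3 fell by 0.32, and CAB39, a cofactor of SPAK, had a log2 fold change of -0.09 (limma adjusted p = 0.0941).

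Of 32 tested genes that act on CFTR and on chloride secretion, 12 were higher (37.5%, against 21.3% of all genes) and 10 lower (31.2%, against 21.9%). Their median log2 fold change was 0.05. SLC9A3R2 (NHERF2), a scaffold that ties CFTR and other membrane proteins to the cytoskeleton, rose 2.74-fold, from 1643 to 1952 normalized counts to 4611 to 5002 (log2 fold change 1.45, standard error 0.0535, limma adjusted p = 2.11e-13). PDZK1, another scaffold of this kind, had a log2 fold change of 1.23 on at most 31.7 normalized counts. The adenosine receptor ADORA2B, which raises cAMP in airway cells, rose 2.08-fold (limma adjusted p = 1.84e-09), and ADCY9, an adenylyl cyclase, rose by 0.74 on the log2 scale. Other genes of the cAMP route moved the other way or did not pass. PRKACA, the catalytic subunit of the cAMP-dependent kinase that acts on CFTR, fell by 0.54 (limma adjusted p = 1.14e-08) and ADCY7 by 0.25 on the log2 scale, while ADCY6 had a log2 fold change of 0.08 (95% interval -0.03 to 0.19). P2RY2, the nucleotide receptor that triggers calcium-dependent chloride secretion, fell by 1.03 on the log2 scale, from 222.6 to 229.4 normalized counts to 100.6 to 115 (limma adjusted p = 7.05e-08), a change just past 2-fold that fell short of it without ACC replicate 1 (log2 fold change -0.97). HSPA8, a chaperone that takes part in CFTR folding, had a log2 fold change of 0.02 (95% interval -0.05 to 0.09).

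**Figure D4:**
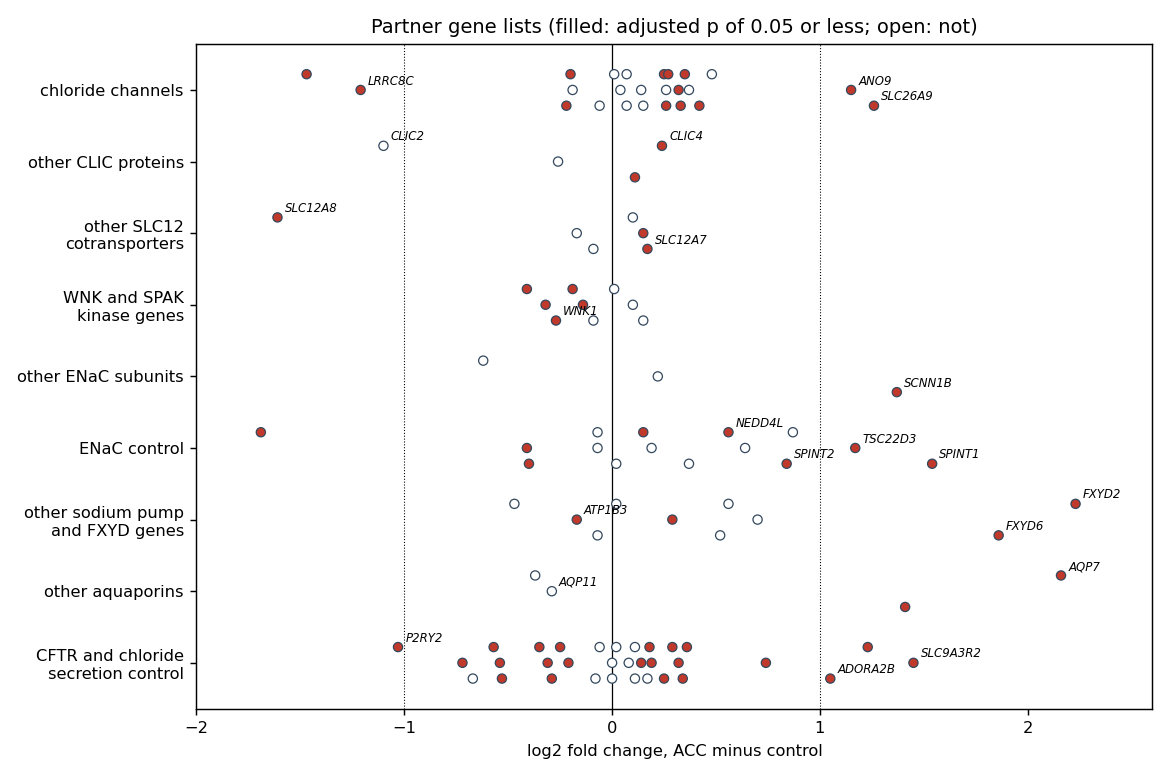
Log2 fold change (ACC minus control) of each tested gene in the 9 partner lists, 1 row a list, filled where the gene passed. Dotted lines mark a 2-fold change. FXYD2 and AQP7 lie farthest to the right, all filled points of the WNK and SPAK row lie left of 0, and the other lists hold points on both sides or to the right.

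For each tested gene, the gene averaging 100 or more normalized counts whose centred log2 values over the 6 libraries lay nearest was looked up among 11179. The nearest to AQP3 was AGR2 (distance 0.22 in log2 units, log2 fold change 2.79), and the nearest to SLC12A2 was XBP1 (distance 0.10, log2 fold change 1.47). CYP4V2 lay nearest to SCNN1A (distance 0.13), P3H4 to ATP1B1 (0.03) and GABRA5 to CLIC3 (0.26). The nearest to CFTR and ANO1, SLITRK6 and IRAK1BP1, lay at 0.56 and 0.36, farther than for the genes with more reads.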

How the data were processed

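RNA-seq was compared between 3 ACC and 3 control cultures of A549, grouped by the titles of the samples. Cutadapt, STAR 2.4.2a, HTSeq and DESeq2 are the tools that the submitters' processing notes name, with GRCh38 as the build. The authors thus counted reads per gene after trimming and alignment, and scaled each library by its DESeq2 size factor. This signal, deposited as normalized counts to 2 decimals, is a whole multiple of 1 read in each library (100% of positive values within 0.1 read), which gave back 21771645 to 24805486 reads a library. The deposited fold changes and p-values of the authors' own comparison were not used.

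Genes whose normalized counts summed to at least 10 (19318) were compared on log2(normalized count + 1) with limma 3.58.1 (mean-variance trend, R 4.3.3) and Benjamini-Hochberg adjustment. edgeR 4.0.16 and DESeq2 1.42.0 were run on the recovered reads, and other scalings, pseudocounts, filters, a replicate block and leaving out each library were tried. The limma step was tested on simulated data. Ratios were tested by exact permutation (SciPy 1.17.1). No library repeats another, since replicates varied beyond counting noise (mean chi-square per gene from 2.60 to 5.24). Lengths and positions are from GENCODE on GRCh38 and promoters from RefSeq. The study counted reads on a different release, from Ensembl, so these lengths may not be those of the genes as counted. Named are all 8 genes, up to 3 genes of each partner list with the smallest adjusted p and the most abundant that did not pass, partners in ratios, the nearest profile of each gene, and others singled out after their values were seen, as further called genes (ANO9, SPINT1, PDZK1, P2RY2), by overlap with SCNN1A or ATP1B1, by position near AQP3 or for their role (PRSS8, SGK1, NEDD4, STK39, OXSR1, KLHL3, PRKACA, ADCY6, ADCY7). Some genes of the lists and 1 ratio are counted but not reported here. The genes and lists were chosen with earlier results of these data known.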

Additional observations from a re-analysis of the deposited data

How the results depend on the processing

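AQP3, SLC12A2, SCNN1A, ATP1B1 and CLIC3 kept their direction and passed the adjusted p under all 15 alternatives, with log2 fold changes from 2.75 to 3.08, 1.42 to 1.56, 0.62 to 0.85, 0.28 to 0.37 and -1.21 to -0.99. ANO1 passed under none of 14 (0.01 to 0.38). CFTR kept its direction in 14 alternatives but its adjusted p was 0.0727 with limma without a filter on low values (log2 fold change 0.87), and it did not pass with edgeR or DESeq2 (0.85 in both) or with limma in 5 of the 6 fits that left out a library (0.55 to 1.18 over the 6). The cause was not tested. Both CFTR and ANO1 fell out when a mean of at least 30 was asked for, and both had fewer than 30 reads in every library, as had AQP5. The difference of the CFTR to SCNN1A ratio turned to -0.10 with a pseudocount of 5 and ranged from -0.07 to 0.33 when a library was left out, and the cause was not tested. Partner genes called lower numbered 1 to 2 when a library was left out, 1 without ACC replicate 1, because P2RY2 then fell short of a 2-fold change, and those called higher numbered 9 to 11 over all alternatives. The counts of partner genes that passed ranged from 32 to 37 for higher and 20 to 24 for lower. Of 594 values for 40 partner and neighbour genes, 14 (4 genes) no longer passed, 1 passed newly (CAB39) and 1 changed sign (HSPA8, -0.01 without control replicate 1 and up to 0.04 without another library). AQP6 did not pass with DESeq2 or without ACC replicate 2 or 3 or control replicate 3. With the replicate block, CFTR stayed at 0.87 on the log2 scale (limma adjusted p = 0.0451), and none of the 7 tested genes changed in whether it passed. Same-numbered libraries deviated together with correlations of -0.114, 0.044 and -0.031. No ACC library correlated best with the control of its number, although control replicate 2 correlated best with ACC replicate 2. The values thus show no pairing by number, but so few libraries cannot exclude one.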
